A study of Mus musculus with 16 samples.

Results

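*Rest* and 8 genes of its corepressors were examined in an ATAC-seq comparison of non-neuroendocrine (non-NE) with neuroendocrine (NE) cells of mouse small-cell lung cancer (SCLC). The 9 genes are *Rest*, *Rcor1*, *Rcor2*, *Rcor3*, *Kdm1a*, *Ehmt2*, *Hdac1*, *Hdac2* and *Sin3a*, and a peak was counted for a gene when, of all protein-coding transcription start sites in the basic GENCODE annotation of mm10, one of that gene lay nearest to the peak centre. Under this rule 23 of the 80367 listed peaks belonged to the 9 genes, which are 9 of 21924 protein-coding genes and of 14590 with a listed peak. ATAC-seq lets the Tn5 transposase insert sequencing adaptors into accessible DNA, so that reads pile up into peaks where chromatin is open.

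REST is a zinc-finger repressor that binds RE1 elements and silences neuronal genes in cells that are not neurons. It recruits SIN3A with the histone deacetylases HDAC1 and HDAC2, and also CoREST, in which an RCOR scaffold carries the same deacetylases and the histone demethylase KDM1A (LSD1). EHMT2 (G9a), which methylates histone H3 at lysine 9, is recruited as well, and NE cells of the lung use many of the neuronal genes that REST can silence.

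All cells came from *TKO*;*Hes1* GFP/+ mice, adults of both sexes in which floxed *Rb*, *p53* and *p130* were deleted by intratracheal adenoviral Cre under the ubiquitous CMV promoter, which does not restrict the cell of origin. Both groups therefore come from the same mice and share the single GFP allele, which sits in the endogenous *Hes1* locus and leaves 1 other copy of *Hes1*. Whether every sorted cell carried the 3 deletions was not tested here. Tumors of each mouse were pooled some months after induction, cells with the leukocyte, endothelial or red cell surface markers CD45, CD31 or TER-119 were gated out, CD24 was used for positive selection, and the rest was divided by GFP into GFP high cells, called non-NE, and GFP neg cells, called NE. There were 3 mice and 4 pairs of populations, with 2 pairs from 1 mouse, giving 8 libraries on 2 lanes each and thus 8 runs of each group.

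The authors compared the groups and listed the peaks past their limits as more open in GFP high cells (opened, 40828 peaks) or less open in them (closed, 39539 peaks). The limits were on both the adjusted p-value and the fold change, so a smaller change is in neither list. For each peak the value used here is the authors' mean of normalized reads over all libraries of both groups, a signal that tells how strong the peak is in the pooled data and not in which group. It has no SD or n, the depth per library is unknown, and peaks outside both lists were not analysed here. In bulk cells, a larger share of cells with an open site and a more open site in each cell cannot be told apart.

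Markers were looked at first. All 7 genes chosen for non-NE or club cells (*Hes1*, *Scgb1a1*, *Scgb3a2*, *Cyp2f2*, *Icam1*, *Yap1* and *Notch2*) had an opened promoter peak, a feature of 26.6% of protein-coding genes. In all they held 69 opened and 20 closed peaks. *Hes1* is not an independent marker, because GFP from its locus divided the groups. The NE genes *Insm1*, *Chga*, *Calca*, *Ncam1* and *Uchl1* each had a closed promoter peak, a feature of 8.43% of protein-coding genes, and *Syp* had no listed peak. *Chga* and *Ncam1* also had opened peaks outside promoters, 8 and 3. Among markers of cells that the gate should remove, the 5 leukocyte genes held 13 opened and 7 closed peaks, 16 of the 20 at *Ptprc*, and *Cd79a* had none. The 3 endothelial genes held 10 opened and 35 closed peaks, 25 of the 45 at *Cdh5*. The 3 fibroblast genes held 7 of each, with all opened ones at *Col1a1*. At promoters, *Cd68*, *Kdr* and *Col1a1*, a gene of each of these cell types, had an opened peak (45.9, 228 and 83.4 mean normalized reads), and *Col1a2* had a closed one (11.4 reads). A listed peak is not a level of expression, and the part of such cells in the results on *Rest* and its corepressors was not tested.

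Of the 23 peaks of the 9 genes, 18 were opened and 5 closed. The opened share was 78.3% (Wilson 95% interval 58.1 to 90.3, counting error only), beside 50.8% of all listed peaks. This interval treats the peaks as independent, though several lie side by side at the same gene, so it may be too narrow. Promoter peaks, whose centre lies within 1 kb of a start site of the gene, made up 10 of the 23 (43.5%, interval 25.6 to 63.2), against 12.9% over both lists. All 10 promoter peaks were opened, where 74.3% of listed promoter peaks were. Outside promoters the genes had 8 opened and 5 closed peaks, and 47.3% of all listed peaks outside promoters were opened. Of the 18 opened peaks 10 thus sat within 1 kb of a start site of their own gene, and the 5 closed ones lay farther away.

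Counted by gene, 7 of the 9 had an opened promoter peak (77.8%, interval 45.3 to 93.7), compared with 26.6% of protein-coding genes, and 0 had a closed promoter peak, compared with 8.43%. The exceptions were *Rcor2* and *Hdac2*, which had no listed promoter peak. *Rest*, *Ehmt2* and *Sin3a* had at least 2 opened promoter peaks, a feature of 6.45% of protein-coding genes. Merging peaks of 1 list at most 100 bp apart joined the 2 *Rest* promoter peaks into 1 and left 9 promoter peaks of the 9 genes. Any opened peak was found at 8 of the 9 genes (52.1% of protein-coding genes) and any closed peak at 2 (42%), *Rcor1* and *Hdac2*. Opened peaks with no closed one were the pattern of 7 genes (24.5% of protein-coding genes), closed peaks with no opened one that of *Hdac2* (14.4%), and *Rcor1* had both. The 9 genes were chosen for their link to REST, with earlier results of these data known, and are not replicates of the condition.

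*Rest* itself (ENSMUSG00000029249.15) spans chr5:77265491-77286432 on the plus strand and has 2 annotated start sites, at 77265491 and 77266196. A listed peak covered each of them, and both peaks were opened. The upstream peak, chr5:77265179-77265623, was 445 bp wide with 212 mean normalized reads. Its neighbour, chr5:77265724-77266576, was 853 bp wide with 280.0 mean normalized reads. A gap of 100 bp separates them, and the first exon of the longer transcript (77265491 to 77265788) reaches from the one peak into the other. The first exon of the shorter transcript, 77266196 to 77266413, lies wholly within the wider peak. Per 100 bp of width the upstream peak held 47.6 reads and the wider one 32.8, beside a median of 34.3 over the 7694 opened promoter peaks. In total reads they stood at percentiles 58.1 and 68.0 of that class, each peak taken alone.

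The third *Rest* peak was opened too and lay 19655 bp upstream of the gene, at chr5:77245565-77246108, in intergenic DNA. It was 544 bp wide with 68.5 mean normalized reads, at percentile 73.9 of opened peaks outside promoters. The next protein-coding start site is that of *Spink2*, 34365 bp away, and a processed pseudogene, *Gm19060*, starts 18458 bp from the peak centre. Downstream of the start no further peak was listed over the 20942 bp of the gene. Within 100 kb of its start sites the lists held 7 opened peaks and 1 closed peak, of which 3 were assigned to *Rest*, 3 to *Spink2* and 2 to *Polr2b*, a subunit gene of RNA polymerase II.

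Short factor motifs were searched as exact letters on both strands in the central 300 bp of each peak, a window that reaches past the ends of narrower peaks, and shares over all listed peaks refer to the same window. The letters were CATTCC for TEAD, TGANTCA for AP-1, TGTTTAC for FOX, TGGGAA for RBPJ, CAGCTG for an E-box, TTGGCA for an NFI half-site, CACTTGA for NKX2, and TCAGCACC and GGACAGC for the 2 parts of the REST element, here called half-sites. A match is a string of letters and not a bound site. TEAD letters occurred in the upstream promoter peak of *Rest* (77265504 to 77265509, minus strand) and in the intergenic one (77245949 to 77245954, minus strand). Of opened promoter peaks 12.9% have these letters, and of opened peaks outside promoters 26.2%. In all, TEAD letters were in the windows of 3 of the 23 peaks, with 18.7% over all listed peaks, and those of the third, at *Rcor1*, fell outside the peak itself. The wider promoter peak carried AP-1 letters at 77266193 to 77266199, across the second start site, where 5.39% of opened promoter peaks have them. It also carried the second REST half-site at 77266232 to 77266238, found in 8.02% of opened promoter peaks. The first REST half-site was in 0 of the 23 peaks (2.06% of listed peaks).

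The intergenic *Rest* peak is shown because it is the listed *Rest* peak outside exons, with the letters of the NFI half-site and, further on, of TEAD in capitals as they read on the plus strand (NFI half-site letters were in the windows of 2 of the 23 peaks, with 21.4% over all listed peaks; GRCm38.p6, chr5:77245687-77245986, central 300 bp):
Rest upstream peak: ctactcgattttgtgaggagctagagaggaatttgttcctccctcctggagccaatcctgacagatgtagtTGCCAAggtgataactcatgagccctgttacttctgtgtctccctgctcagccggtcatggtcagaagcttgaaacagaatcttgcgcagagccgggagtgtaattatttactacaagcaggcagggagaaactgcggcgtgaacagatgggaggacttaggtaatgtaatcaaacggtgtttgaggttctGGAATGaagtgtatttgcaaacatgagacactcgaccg

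By the pattern of peaks alone, *Rest* had much company. Its 3 opened and 0 closed peaks were shared by 627 protein-coding genes, 125 of which also had 2 promoter peaks among them. Those nearest to *Rest* in summed mean normalized reads (560.5) were *Atox1* (560.8), *Borcs6* (562.4), *Wbp2* (558.1), *Mtfr1l* (556.7) and *Llgl1* (565.6). This likeness rests on peak counts and on 1 summed value over all libraries per gene.

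Of the scaffolds, *Rcor1* encodes CoREST itself and had the most listed peaks of the 9 genes, 4 opened and 1 closed. Its promoter peak, chr12:111038811-111039653, held 638 mean normalized reads over 843 bp and stood at percentile 94.3 of opened promoter peaks. The other 4 lay in introns of *Rcor1* and were weaker than the promoter peak. Opened ones were chr12:111054512-111054697 (10.3 reads), chr12:111088392-111088549 (14.0 reads) and chr12:111094164-111094510 (33.5 reads), at 14806, 48672 and 54539 bp from the start site. The closed one, chr12:111089153-111089367 (21.2 reads), lay 49462 bp from the start site and 603 bp from the nearest opened peak. Neighbours of opposite direction are uncommon at that spacing: of 13646 adjacent listed pairs at most 1 kb apart, 838 (6.14%) joined an opened and a closed peak. Both peaks of this pair were among the weaker listed ones, below the medians of their classes (32.5 reads for opened and 25.0 for closed peaks outside promoters).

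The strongest intronic peak of *Rcor1* held letters for RBPJ, the DNA-binding partner of the Notch intracellular domain, and for NKX2. RBPJ letters were in the windows of 4 of the 23 peaks, with 26.8% over all listed peaks, and in 1 of the 4, another *Rcor1* intron, they fell outside the peak itself. NKX2 letters were in 2 of the 23 windows, with 7.69% over all listed peaks. The central 300 bp on the plus strand (GRCm38.p6, chr12:111094188-111094487) are given with the RBPJ letters and then the NKX2 letters in capitals:
Rcor1 intron peak: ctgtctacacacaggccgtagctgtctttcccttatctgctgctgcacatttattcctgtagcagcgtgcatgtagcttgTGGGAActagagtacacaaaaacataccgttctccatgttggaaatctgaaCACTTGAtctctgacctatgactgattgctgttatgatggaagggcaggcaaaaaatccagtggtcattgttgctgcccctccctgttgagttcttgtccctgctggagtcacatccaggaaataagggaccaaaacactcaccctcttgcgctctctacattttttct

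*Rcor2*, a scaffold with high expression in the nervous system and in stem cells, had a single listed peak and none at its promoter. This peak, chr19:7264206-7264363, was opened, 158 bp wide with 34.0 mean normalized reads, and lay 3995 bp upstream in intergenic DNA. It stood at percentile 51.6 of opened peaks outside promoters. Its surroundings were richer: within 100 kb of the *Rcor2* start sites the lists held 13 opened and 4 closed peaks, 16 of them assigned to the neighbours *Mark2*, *Otub1*, *Naa40* and *Cox8a*. The whole peak (GRCm38.p6, chr19:7264206-7264363, plus strand) is given with its E-box letters, the core bound by basic helix-loop-helix proteins, in capitals:
Rcor2 upstream peak: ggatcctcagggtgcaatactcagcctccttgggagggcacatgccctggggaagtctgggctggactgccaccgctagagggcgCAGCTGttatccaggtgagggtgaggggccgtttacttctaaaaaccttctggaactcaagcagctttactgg
E-box letters were in the windows of 3 of the 23 peaks, at *Rcor2*, *Rcor3* and *Sin3a*, with 22.9% over all listed peaks, and at *Sin3a* they fell just past the end of the narrow upstream peak.

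*Rcor3*, the third scaffold gene, had 2 opened peaks and no closed one. The promoter peak, chr1:192137548-192138585, was the widest of the 23 at 1038 bp, took in all 5 annotated start sites and held 567 mean normalized reads (percentile 91.8 of opened promoter peaks). The other, chr1:192136443-192137083, held 312 reads 1164 bp into the gene, at percentile 98.1 of opened peaks outside promoters. Its centre lies in an exon of *Gm37055*, a gene that starts 74 bp from it, so it is a promoter peak of that gene when all biotypes are counted. E-box, NFI half-site and second REST half-site letters lay close together there (192136782 to 192136803), and those of the E-box and the NFI half-site overlapped. Second REST half-site letters were in 2 of the 23 peaks, this one and the wider promoter peak of *Rest*, against 6.26% of listed peaks.

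The demethylase gene *Kdm1a* had 1 listed peak, an opened one over both of its start sites at chr4:136602107-136602937. It was 831 bp wide with 247 mean normalized reads, at percentile 63.5 of opened promoter peaks, and 80.7% of its central 300 bp were G or C. No listed peak lay in the rest of the gene, and the next one, 7382 bp away, was closed and assigned to *Tex46*.

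*Ehmt2*, the methyltransferase gene, resembled *Rest* in layout. Its 4 start sites lay under 2 opened promoter peaks 126 bp apart, 2 under each. The upstream one, chr17:34898213-34898651, held 143 mean normalized reads and the downstream one, chr17:34898778-34899101, held 56.6. These were the lowest promoter values of the 9 genes, at percentiles 45.3 and 24.0 of opened promoter peaks. The locus is gene-dense, and within 100 kb of its start sites there were 19 opened peaks and 1 closed peak, 18 of the 20 assigned to other genes such as *Slc44a4*, *C2* and *Cfb*.

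The 2 deacetylase genes differed. *Hdac1* had 1 listed peak, opened, over its only annotated start site at chr4:129542424-129543067, with 399 mean normalized reads over 644 bp (percentile 81.2 of opened promoter peaks). Another opened peak, chr4:129517008-129517216 with 42.2 reads, lay in the *Hdac1* gene body but was assigned to *Marcksl1*. *Hdac2* had 4 listed peaks, all closed and none at a promoter. Inside the gene was chr10:37000935-37001215, in an intron 26505 bp from the start site, with 22.3 reads. In intergenic DNA were chr10:36906085-36906348, 68328 bp upstream with 19.6 reads, and chr10:37049922-37050232, 75507 bp downstream of the start with 33.1 reads. The strongest, chr10:36795187-36795641 with 66.7 reads, lay 179130 bp upstream in an intron of *Hs3st5*, a heparan sulfate sulfotransferase gene. *Hdac2* is the nearest protein-coding gene by start site for each of them, and whether they act on it was not tested. Only the intronic one lies in the gene body or within 10 kb of it, and the strongest is beyond 100 kb and nearer to the start of *Gm22554* when genes of every biotype are counted.

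The 4 closed peaks assigned to *Hdac2* in this way had AP-1 letters in common. TGANTCA, the string bound by FOS and JUN dimers, was present in all 4, between 5 and 71 bp from the peak centre, whereas 31.8% of closed and 15.5% of opened peaks outside promoters have it. Among the 681 genes with 4 closed peaks outside promoters, 8 (1.17%) had the letters in every one. This count was made after the matches had been seen and describes these lists only. Over all 23 peaks AP-1 letters were in 5, against 21.9% of listed peaks. The stretches around the letters (capitals), on the plus strand of chromosome 10 of GRCm38.p6, differ outside them:
Hdac2 chr10:36795465-36795505: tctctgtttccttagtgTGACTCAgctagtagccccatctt
Hdac2 chr10:36906176-36906216: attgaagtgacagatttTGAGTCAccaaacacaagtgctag
Hdac2 chr10:37001050-37001090: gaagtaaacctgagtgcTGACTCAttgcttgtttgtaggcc
Hdac2 chr10:37050043-37050083: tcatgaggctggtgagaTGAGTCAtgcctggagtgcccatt

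*Sin3a*, the scaffold of the SIN3 deacetylase complex, had the strongest peaks of the 9 genes. It had 4 opened peaks and no closed one, with 2318 mean normalized reads in sum. Its promoter peak chr9:57075708-57076465 held 970 reads over 758 bp (percentile 98.9 of opened promoter peaks), and chr9:57076700-57077258, 580 bp downstream of the nearest start site, held 455 (percentile 85.3). Upstream of the basic start sites were chr9:57072977-57073863 with 816 reads and the narrow chr9:57071948-57072070 with 78.2. The former stood at percentile 99.95 of the 33134 opened peaks outside promoters. It is 1918 bp from the nearest start site in the basic set, but the gene record of *Sin3a* begins at 57072040, within the narrow peak. The narrow peak thus overlaps a RefSeq promoter of *Sin3a*, and the stronger one lies inside the gene record. Both count as outside promoters here by the basic start sites only. Non-coding genes start nearby as well, *Gm10658* 202 bp from the narrow peak and *2700012I20Rik* 73 bp from the strongest one.

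FOX letters were in 4 of the 23 peaks, at *Sin3a*, *Hdac2* and, in 2 introns, *Rcor1*, against 10.3% of listed peaks. At *Sin3a* they lay in the strong peak upstream of the basic start sites, which is inside the gene record. The central 300 bp of this peak on the plus strand (GRCm38.p6, chr9:57073271-57073570) are given with the FOX letters in capitals:
Sin3a upstream peak: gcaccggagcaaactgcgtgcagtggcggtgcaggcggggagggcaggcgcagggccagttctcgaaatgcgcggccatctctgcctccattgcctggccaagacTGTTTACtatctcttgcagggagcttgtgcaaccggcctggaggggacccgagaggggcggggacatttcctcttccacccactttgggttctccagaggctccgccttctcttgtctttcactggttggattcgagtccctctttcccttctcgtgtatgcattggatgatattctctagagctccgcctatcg

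The 10 promoter peaks were also compared in strength, width and base composition with the 7694 opened promoter peaks as a whole. Their mean normalized reads ran from 56.6 to 970 with a median of 339, beside a median of 169 (interquartile range 59.9 to 338) over all opened promoter peaks, and 8 of the 10 exceeded that median, both *Ehmt2* peaks being below it. The median width was 701 bp against 485 bp, with 7 of the 10 above it and the *Ehmt2* peaks and the upstream *Rest* peak below. Per 100 bp the median was 51.1 against 34.3 reads, and only 6 of the 10 exceeded it, so the members varied on this measure. Wider peaks collect more reads, and the share of width in the higher totals was not tested. In the central 300 bp the median share of G and C was 75.8% against 64.3%, and the median ratio of observed to expected CpG was 0.903 against 0.758. For each of these measures 9 of the 10 exceeded the median of all opened promoter peaks, and the exception was the strongest peak, that of *Sin3a* with 970 reads (57.3% G and C, CpG ratio 0.546). Of the 10 peaks 9 lay over an annotated start site of their gene, the exception being the downstream *Sin3a* peak. Outside promoters, the 8 opened peaks of these genes held 10.3 to 816 reads (median 51.3) with a median CpG ratio of 0.422. The 5 closed peaks of *Rcor1* and *Hdac2*, all outside promoters, held 19.6 to 66.7 reads (median 22.3) and a median CpG ratio of 0, where all closed peaks outside promoters had medians of 25.0 reads and 0.206.

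Beyond the 9 genes, 52 further genes of complex partners, recruited factors and regulators of REST were counted by role. These lists were chosen with earlier results of these data known, and their intervals cover counting error only. Together they had 197 opened and 107 closed peaks (64.8% opened, beside 50.8% of all listed peaks). Of the 52 genes 30 (57.7%, interval 44.2 to 70.1) had an opened promoter peak, beside 26.6% of protein-coding genes, and 2 (3.85%) a closed one, beside 8.43%. The highest share was among 11 partners of CoREST and KDM1A, of which 9 (81.8%, interval 52.3 to 94.9) had an opened promoter peak. They include *Hmg20b*, which encodes an HMG-box subunit, *Phf21a*, whose product reads unmethylated histone H3, and *Kdm1b*, the paralog of *Kdm1a*, with 953 mean normalized reads at its promoter. *Gse1* had the most listed peaks of any gene counted, 41 opened and 7 closed, 8 of the opened ones at promoters. *Gfi1*, a repressor that itself binds KDM1A, went the other way with 5 closed peaks and no opened one, and *Zmym3* had no listed peak.

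Subunits of the SIN3 complex had an opened promoter peak in 7 of 14 genes (50%, interval 26.8 to 73.2, beside 26.6% of protein-coding genes), among them *Ing1* with 3, the strongest at 1122 reads. The 14 genes held 24 opened and 10 closed peaks in all. Of 6 partners of G9a, 3 (*Ehmt1*, *Wiz* and *Setdb1*) had an opened promoter peak, while *Cdyl*, which bridges REST and G9a, had 9 opened and 6 closed peaks away from its promoter. No peak was listed for *Suv39h1* and *Suv39h2*. Other recruited factors had an opened promoter peak in 6 of 11 genes (54.5%), and no peak was listed at *Hdac3*.

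Genes whose products act on REST were split, with 43 opened and 42 closed peaks (50.6% opened, beside 50.8% of all listed peaks). Of 10, 5 (50%, interval 23.7 to 76.3, beside 26.6% of protein-coding genes) had an opened promoter peak: *Btrc*, a ubiquitin ligase subunit that marks REST for degradation, *Usp7*, a deubiquitinase, *Ctdsp1* and *Ctdspl*, phosphatases, and *Csnk1e*, a kinase. *Srrm4*, a neural splicing factor that acts on *Rest* transcripts and thereby gives a truncated REST protein, had 14 closed peaks and 0 opened ones, 3 of them at promoters. Those 3 held 46.9, 19.1 and 63.8 mean normalized reads. Thus *Rest* was opened at both start sites and *Srrm4* was closed at its promoters in the same comparison, and RNA was not analysed here.

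Of 20 genes known as REST targets in neurons and heart, 0 had an opened promoter peak (26.6% of protein-coding genes) and 13 (65%, interval 43.3 to 81.9) had a closed one (8.43% of protein-coding genes). In all the targets held 21 opened and 68 closed peaks, so that 23.6% were opened. *Chga* held 8 of the opened ones beside 6 closed peaks, and *Vgf* and *Grin1* had opened peaks only. Closed promoter peaks were found at *Stmn2*, *Scn2a*, *Syn1*, *Snap25*, *Chga*, *Gria2*, *Bdnf*, *Celsr3*, *Tubb3*, *Syt4*, *Unc13a*, *Hcn4* and *Nppa*. *Bdnf*, which encodes a neurotrophin and has many promoters, had 4 of them, with 15.5 to 46.0 mean normalized reads. *Syp* and *Chrnb2* had no listed peak. Many of the targets are neuronal genes, NE markers had closed promoter peaks too, and the part of REST in the closing was not tested. The list was chosen with earlier results of these data known, and *Chga* and *Syp* are also among the NE markers above. Its interval covers counting error only and does not make the list a sample of all REST targets.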

How the data were processed

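Cells, libraries and groups are those described above. By the paper's methods and the submitters' processing notes, the authors trimmed the reads, aligned them to mm10 with Bowtie2 (2.3.4.1), removed duplicates, called narrow peaks with MACS2 with reads shifted around the Tn5 cut, merged the peaks of all samples, counted reads per sample and compared the groups with DESeq2 (1.28.1). Whether lanes, or the pairs of 1 mouse, were summed is not given in the sources used here. Each peak has a deposited signal, the authors' mean over all libraries of reads divided by size factors. The other deposited columns hold the authors' own comparison (log2 fold change with its error, statistic, p-values) and were not used; direction comes from the list alone, and no test was made.

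Peaks were assigned, classed and searched in Python 3.11.15 (numpy 2.4.6, pandas 2.3.3, scipy 1.17.1, pysam 0.24.0) with GENCODE vM21 basic transcripts. The assignment was checked on simulated data. Sequences are from the RefSeq copy of GRCm38.p6; positions are 1-based. Of the RefSeq promoter table, 7 of the 9 genes had an entry (not *Rest* and *Hdac1*). Percentiles are within list and class. The members and lists were chosen with earlier results of these data known. Named are all 9 genes, listed genes with a promoter peak, up to 5 per list with most peaks, and the 5 most like *Rest*; other genes were named after their values were seen, and a few genes are not reported here. Alternatives varied the assignment, the least reads, merging, promoter distance and motif window.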

Additional observations from a re-analysis of the deposited data

How the results depend on the processing

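The 23 peaks of *Rest* and its corepressor genes fell to 13 when start sites of every gene biotype competed for a peak. The construction shows the cause: 10 peaks moved to genes that are not protein-coding, 4 of them at *Rcor1*, which lost its closed peak, and 3 at *Sin3a*, and the intergenic *Rest* peak went to *Gm19060*. Under the other 6 assignments or filters there were 20 to 31 peaks, the most when all peaks within 10 kb of the gene body were counted. The 4 closed peaks of *Hdac2* became 1 under that rule, and 3 within 100 kb or with every biotype. With the gene body rule *Hdac1* went from 1 to 6 opened peaks and *Ehmt2* from 2 to 6. *Kdm1a* gained 1 closed peak beside its opened one, *Rest* fell to 2 opened peaks, and *Rcor3* and *Sin3a* rose to 3 and 5. The opened share ran from 76.9% to 90.3% over 7 alternatives, promoter peaks from 9 to 12 over 8, and each of the 9 genes kept a listed peak in all 7. Pairs of a peak and a motif matched in its central 300 bp window, which can reach past the peak, numbered 25, with 21 in the central 200 bp and 34 in whole peaks. Start sites of protein-coding transcripts alone, an alternative chosen after seeing the data, gave the same 23 peaks in number. No paired analysis was possible because the values are not given per sample. For the same reason the depth, the spread between mice and the weight of the mouse that gave 2 pairs are unknown. A gene without a listed peak may be open alike in both groups, closed in both, or differ by less than the authors' limits.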
